A study of Sus scrofa with 6 samples.

Results

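The proteasome genes of the pig liver were taken as every gene of the deposited table whose symbol begins with PSMA, PSMB, PSMC or PSMD and a number, and 38 of 17109 genes met that rule. They fell into 7 alpha-ring subunits, 7 constitutive beta-ring subunits, 3 immune beta subunits, 6 regulatory ATPases and 11 regulatory subunits without ATPase activity. The 3 base assembly chaperones PSMD5, PSMD9 and PSMD10 help to build the regulatory particle and leave it, and PSMC3IP, a cofactor of meiotic recombination, only shares the start of its symbol, so these were kept apart from the 34 subunits. The alpha-ring gene PSMA8 and the thymic beta gene PSMB11 were not analysed here.

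The proteasome is the barrel-shaped protease that degrades proteins tagged with ubiquitin. Its core particle stacks outer rings of alpha subunits, which form the gate, on inner rings of beta subunits, among which PSMB5, PSMB6 and PSMB7 carry the cutting sites, and its regulatory particle recognises ubiquitin, removes it and threads the unfolded substrate into the core with a ring of ATPases. Interferon induces PSMB8, PSMB9 and PSMB10, which replace PSMB5, PSMB6 and PSMB7 in newly built cores and give the immunoproteasome, known for cutting peptides for presentation by MHC class I.

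RNA was sequenced from liver of Bama minipigs, 3 of them WT (libraries WT1 to WT3) and 3 heterozygous for a loss of ASGR1 (ASGR1+/-, libraries S03 to S05), 1 library per animal, after an overnight fast. The ASGR1+/- animals carry on 1 allele a CRISPR/Cas9 deletion that removes an intron-exon boundary of ASGR1, the gene of the major subunit of the hepatocyte asialoglycoprotein receptor. The line descends from edited fetal fibroblast colonies by nuclear transfer, and the study's methods describe the pigs used as young and close in age within an experiment. The methods do not state the sex of the WT pigs separately. They describe the pigs generated in the study as male, except for a female offspring named F1-03. The study left S03 out after its principal-component analysis, and the labels do not say whether S03 is that female, so the genotype and the sex of S03 cannot be told apart. Counts and the genes described in full are therefore given for S04 and S05 against WT and also with S03 included, and a log2 fold change given alone is the one without S03. Both comparisons share the WT libraries, S04 and S05, and are not independent.

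The libraries held 15397768 (S03) to 16237732 (WT3) estimated counts. Levels per library are given as CPM, counts relative to the library total after scaling by the TMM factors of edgeR, and levels are compared between genes as TPM, which also accounts for transcript length. ASGR1 itself had 299.8 (WT1), 369.7 (WT2) and 285 CPM (WT3) in the controls, 290.4 in S04, 273 in S05 and, apart, 334 in S03, with overlapping groups, and since counts were summed over the whole gene this checks the edit only weakly. Hepatocyte markers were abundant in every library, but their summed level was lower in each ASGR1+/- library (59630.0 to 72304 CPM over 12 genes) than in each WT library (83171 to 203453 CPM). The markers did not move as 1 block, since ALB, which encodes serum albumin, ran from 9055 CPM in S04 to 114548 in WT3, while FGB, a fibrinogen chain, stood at 29706 (S04) and 36679 (S05), above the 23624 CPM of the highest WT library. Most were lower, with 10 of 12 log2 fold changes below 0, a median of -0.91 and the lowest values for ALB (-2.95), TF (-2.31) and TTR (-2.21). HNF4A, a transcription factor of hepatocytes, had a log2 fold change of 0.26. APOB, the main apolipoprotein of secreted lipoproteins, had -0.24 and SERPINA1, a secreted protease inhibitor, -0.36. Of the 12 markers, edgeR passed none, while DESeq2 passed 7 as lower and 1 (FGB) as higher (all genes, 6.3% and 3.26%). With S03 included, edgeR again passed none, and DESeq2 passed 6 as lower and 0 as higher (all genes, 3.91% and 1.73%). S03 stood apart from S04 and S05 in other cell types, with 752 CPM of the haemoglobin gene HBB where S04 had 2.58 and the WT libraries 76.6 to 229.9. In CPM it was above every WT library for 7 of 8 endothelial and 4 of 6 stellate cell markers, beside 3926 of 13401 genes tested. In TPM the counts were 7 and 5, beside 48.7% of all genes. The part of these markers in the values of S03 was not tested. In whole tissue, fewer cells of a type and less RNA per cell cannot be told apart.

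No proteasome gene passed the test in either comparison. All 38 genes were tested, with the quasi-likelihood test of edgeR and an adjusted p of at most 0.05 over all genes, a threshold that 0.791% of all genes tested passed without S03 and 0.136% passed with S03 included. At an unadjusted p under 0.05, PSMB9 and PSMD10 were higher and PSMC3IP was lower in both comparisons, which makes 2 of 38 higher, beside 8.89% of all genes without S03 and 6.67% with it. The single gene that was lower stood beside 12% and 9.45% of all genes, so neither count exceeded the share over all genes. DESeq2, the tool of the study, passed 1 gene, PSMB9, as higher in S04 and S05 (all genes, 3.26%) and 0 with S03 included (all genes, 1.73%). It passed 0 as lower in either comparison, where it passed 6.3% and 3.91% of all genes.

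The median log2 fold change of the 38 genes was 0.071 without S03, with 26 above 0 and 12 below, and -0.031 with S03 included, with 17 above 0 and 21 below. Over all genes tested the medians were 0.0031 and 0.023. In CPM, the groups did not overlap for 4 proteasome genes that were higher in S04 and S05 (PSMA6, PSMD5, PSMD10 and PSMD14) and for 1 that was lower (PSMC3IP), beside 19% and 20.1% of all genes. With S03 included, PSMD10 was the 1 higher gene and PSMC3IP the 1 lower gene without overlap (all genes, 9.94% and 11.8%).

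**Figure D1:**
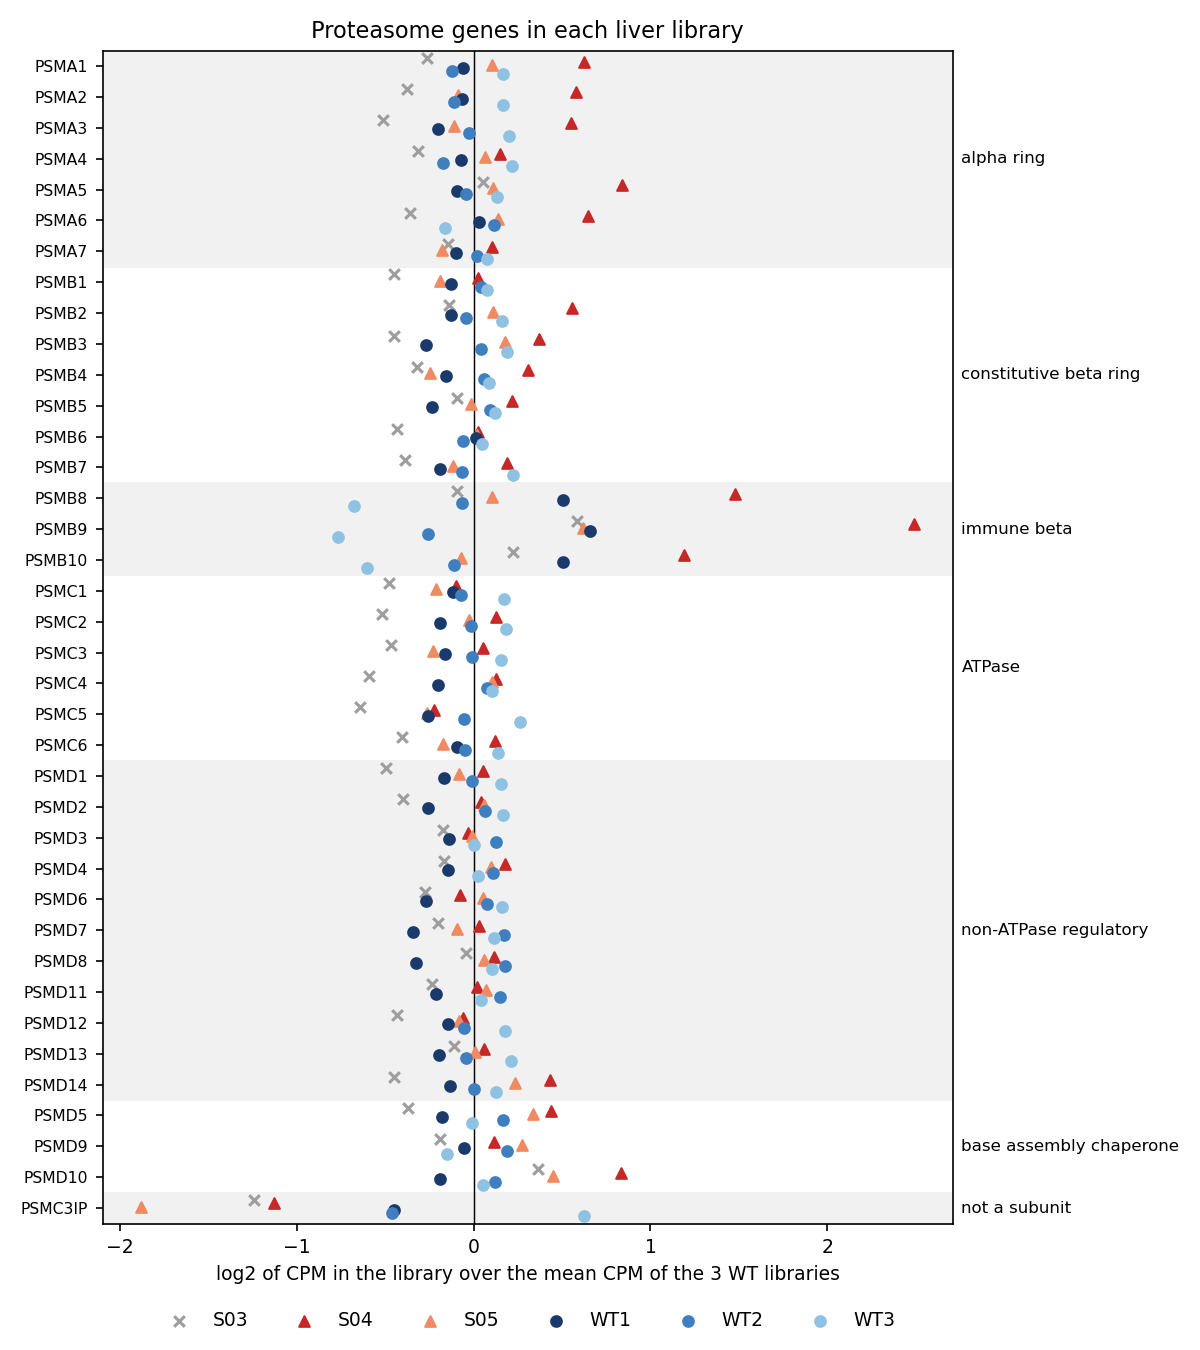
Each row is a proteasome gene and each point a library, on the log2 scale of its CPM over the mean of the 3 WT libraries, with triangles for S04 and S05, crosses for S03 and circles for WT. S04 was the highest library for 18 of 38 genes, and S03 lay below every WT library for 29.

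Libraries of the same genotype stood apart from each other for many of these genes. S04 was the highest of the 6 libraries for 18 of 38 proteasome genes (47.4%), and for 14.8% of all genes tested. That held for 10 of 14 constitutive core subunits and for all 3 immune subunits, but for only 3 of 17 regulatory subunits. In TPM the counts were 13, 3 and 5. S04 exceeded S05, of the same genotype, for 14 of 14 core subunits, 13 of 17 regulatory subunits and 49.4% of all genes tested. In TPM this held for 13 core and 7 regulatory subunits (41.2%) and 41.6% of all genes, so the regulatory subunits were then at the share over all genes. S03 lay below every WT library for 29 of 38 proteasome genes (76.3%), among them all 6 ATPases and none of the immune subunits, beside 29.9% of all genes. This position of S03 depended on the scaling, since in TPM it lay below WT for 17 proteasome genes (44.7%) and above WT for 7 (18.4%), with 13.3% of all genes below and 48.7% above. S04 was the highest library in TPM for 23 proteasome genes (60.5%), against 10.6% of all genes.

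Summed over each class, the immune subunits varied the most between libraries. The 7 alpha-ring genes summed to 565 (WT1), 585 (WT2) and 651 CPM (WT3) in the controls, 863 in S04, 598 in S05 and, apart, 491 in S03. S04 stood above the WT range here, S05 within it and S03 below it. The 7 constitutive beta genes summed to 475 (WT1), 533 (WT2) and 579 CPM (WT3) in the controls, 618 in S04, 505 in S05 and, apart, 419.9 in S03, in the same order of the ASGR1+/- livers. The 6 ATPases summed to 557 (WT1), 618 (WT2) and 712 CPM (WT3) in the controls, 629.9 in S04, 566 in S05 and, apart, 439 in S03. For the 11 other regulatory subunits the sums were 802 (WT1), 976 (WT2) and 1007 CPM (WT3) in the controls, 971 in S04, 946 in S05 and, apart, 768 in S03. S04 and S05 were within the WT range of CPM for both regulatory classes, and S03 was again below it. The 3 immune subunits summed to 211 (WT1), 134 (WT2) and 91.4 CPM (WT3) in the controls, 465 in S04, 164 in S05 and, apart, 163 in S03, so that S05 and S03 lay between WT1 and WT2. These places depended on the scaling. In TPM, S04 and S05 were both above WT for the alpha ring (1340.1 and 979.6 against at most 961 in WT), the constitutive beta ring (1363 and 1179 against at most 1142) and the regulatory subunits without ATPase activity (730.1 and 746 against at most 699). For the ATPases S04 was above WT in TPM (642 against at most 626), S05 inside it (615) and S03 below it (514). Within a library, where no scaling between libraries enters, the ratio of summed TPM of core to regulatory subunits ran from 1.5 to 1.65 in WT and reached 1.97 in S04, 1.59 in S05 and, apart, 1.61 in S03, so only S04 was outside the WT range.

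**Figure D2:**
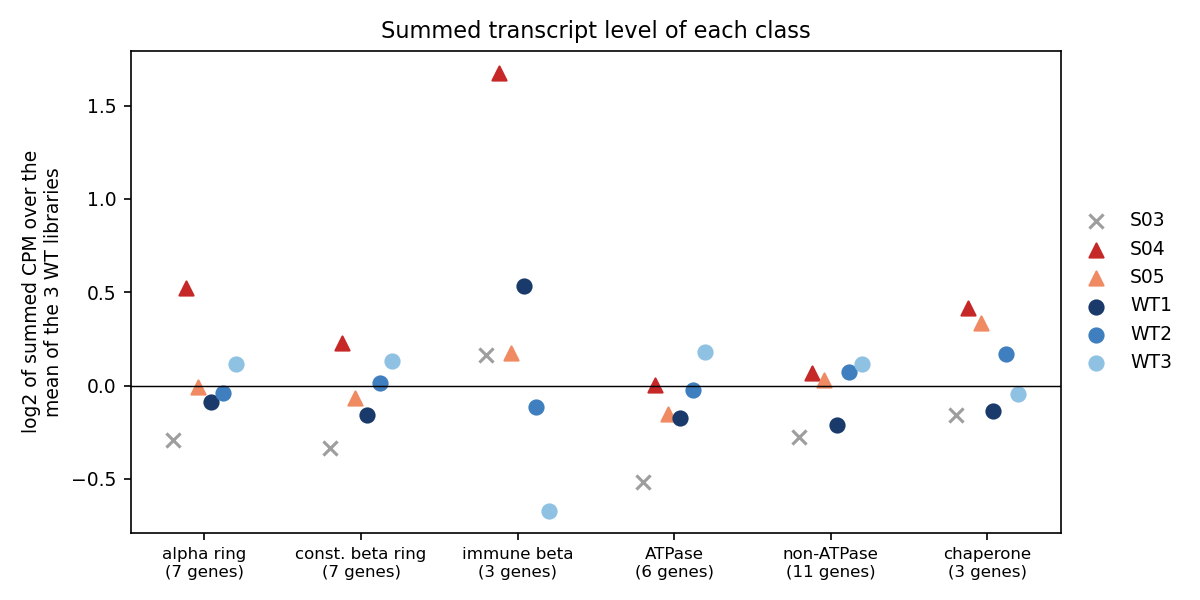
Points give the summed CPM of each class in each library over the mean of the 3 WT libraries, on a log2 axis. The immune subunits spread from 91.4 CPM in WT3 to 465 in S04, and the regulatory classes of S04 and S05 stayed within the WT range of CPM.

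Among the alpha subunits, whose ring gates the core, the median log2 fold change was 0.28 without S03 and 0.10 with S03 included, and 6 of 7 were above 0 in the former. PSMA5, an alpha subunit placed early in ring assembly, had 58.7 (WT1), 60.8 (WT2) and 68.7 CPM (WT3) in the controls, 112 in S04, 67.6 in S05 and, apart, 65.0 in S03. S04 stood alone above the other libraries, and S05 fell inside the WT range. Its log2 fold change (SE, standard error) was 0.52 (SE 0.238, edgeR adjusted p = 0.271), and 0.38 with S03 (edgeR adjusted p = 0.477). PSMA6, another structural subunit of this ring, had 88.5 (WT1), 94.0 (WT2) and 77.5 CPM (WT3) in the controls, 136 in S04, 95.4 in S05 and, apart, 67.7 in S03. S04 and S05 were above every WT library, S05 by a margin that was small beside the WT spread, and S03 was below all of them, for a log2 fold change of 0.41 (SE 0.207, edgeR adjusted p = 0.310, and 0.20 with S03). PSMA1 had 85.1 (WT1), 81.6 (WT2) and 99.3 CPM (WT3) in the controls, 137 in S04, 95.3 in S05 and, apart, 73.8 in S03, with S05 inside the WT range and a log2 fold change of 0.39 (SE 0.210, edgeR adjusted p = 0.347, and 0.20 with S03). PSMA7, the member of the ring with the smallest change, had 86.2 (WT1), 93.9 (WT2) and 97.5 CPM (WT3) in the controls, 99.5 in S04, 81.9 in S05 and, apart, 83.6 in S03, and a value of -0.029 (SE 0.172, edgeR adjusted p = 0.942, and -0.067 with S03). S04 was just above and S05 just below the WT range of PSMA7. PSMA2, PSMA3 and PSMA4 had log2 fold changes of 0.28, 0.26 and 0.11, with overlapping groups in CPM. In TPM, S04 and S05 were above every WT library for 5 of 7 alpha subunits, all but PSMA2 and PSMA7 (all genes, 23.1%). By TPM the WT means of the ring ran from 64.7 ± 0.973 (SD, n = 3) for PSMA3 to 168 ± 14.4 (SD, n = 3) for PSMA2. PSMA2, PSMA7 (161 ± 11.5) and PSMA6 (159.5 ± 31.8) did not differ in level beyond their SDs.

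The constitutive beta genes had a median log2 fold change of 0.056 without S03 and -0.060 with it. PSMB5, the chymotrypsin-like site, had 58.7 (WT1), 73.5 (WT2) and 75.0 CPM (WT3) in the controls, 80.3 in S04, 68.3 in S05 and, apart, 64.7 in S03, and a log2 fold change of 0.11 (SE 0.184, edgeR adjusted p = 0.777, and 0.042 with S03). PSMB6, the caspase-like site, had 60.6 (WT1), 57.6 (WT2) and 62.2 CPM (WT3) in the controls, 61.3 in S04, 60.9 in S05 and, apart, 44.4 in S03, and the value was 0.023 (SE 0.147, edgeR adjusted p = 0.946, and -0.11 with S03). PSMB7, the trypsin-like site, had 89.7 (WT1), 97.8 (WT2) and 119.6 CPM (WT3) in the controls, 116 in S04, 94.3 in S05 and, apart, 78.2 in S03, with a change of 0.043 (SE 0.200, edgeR adjusted p = 0.924, and -0.087 with S03). In CPM the groups overlapped for all of these catalytic subunits, and S03 was the lowest library for PSMB6 and PSMB7. In TPM all ASGR1+/- libraries were above WT for PSMB5 (91.3 to 101 against at most 89.3, all genes 17.4%). PSMB2, a structural beta subunit, had 45.8 (WT1), 48.5 (WT2) and 55.9 CPM (WT3) in the controls, 73.5 in S04, 54.1 in S05 and, apart, 45.5 in S03, and its log2 fold change was 0.35 (SE 0.193, edgeR adjusted p = 0.354, and 0.20 with S03). PSMB3, also without a cutting site, had 45.6 (WT1), 56.6 (WT2) and 62.7 CPM (WT3) in the controls, 70.9 in S04, 62.3 in S05 and, apart, 40.2 in S03, and 0.28 (SE 0.189, edgeR adjusted p = 0.454, and 0.072 with S03). In CPM, S04 was the highest library for both, but S05 was below WT3. In TPM, S04 and S05 were above every WT library for 3 of 7 constitutive beta genes (PSMB2, PSMB3 and PSMB5, all genes 23.1%). For PSMB2, as for PSMB5, this held in TPM with S03 included (118 to 170 against at most 116, all genes 17.4%). PSMB1 and PSMB4 had values of -0.078 and 0.056, with overlapping groups. PSMB1 was the most abundant proteasome gene in WT liver, at 228 ± 15.6 TPM (SD, n = 3), and PSMB5 the least abundant constitutive beta gene, at 83.3 ± 5.22 TPM (SD, n = 3).

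**Figure D3:**
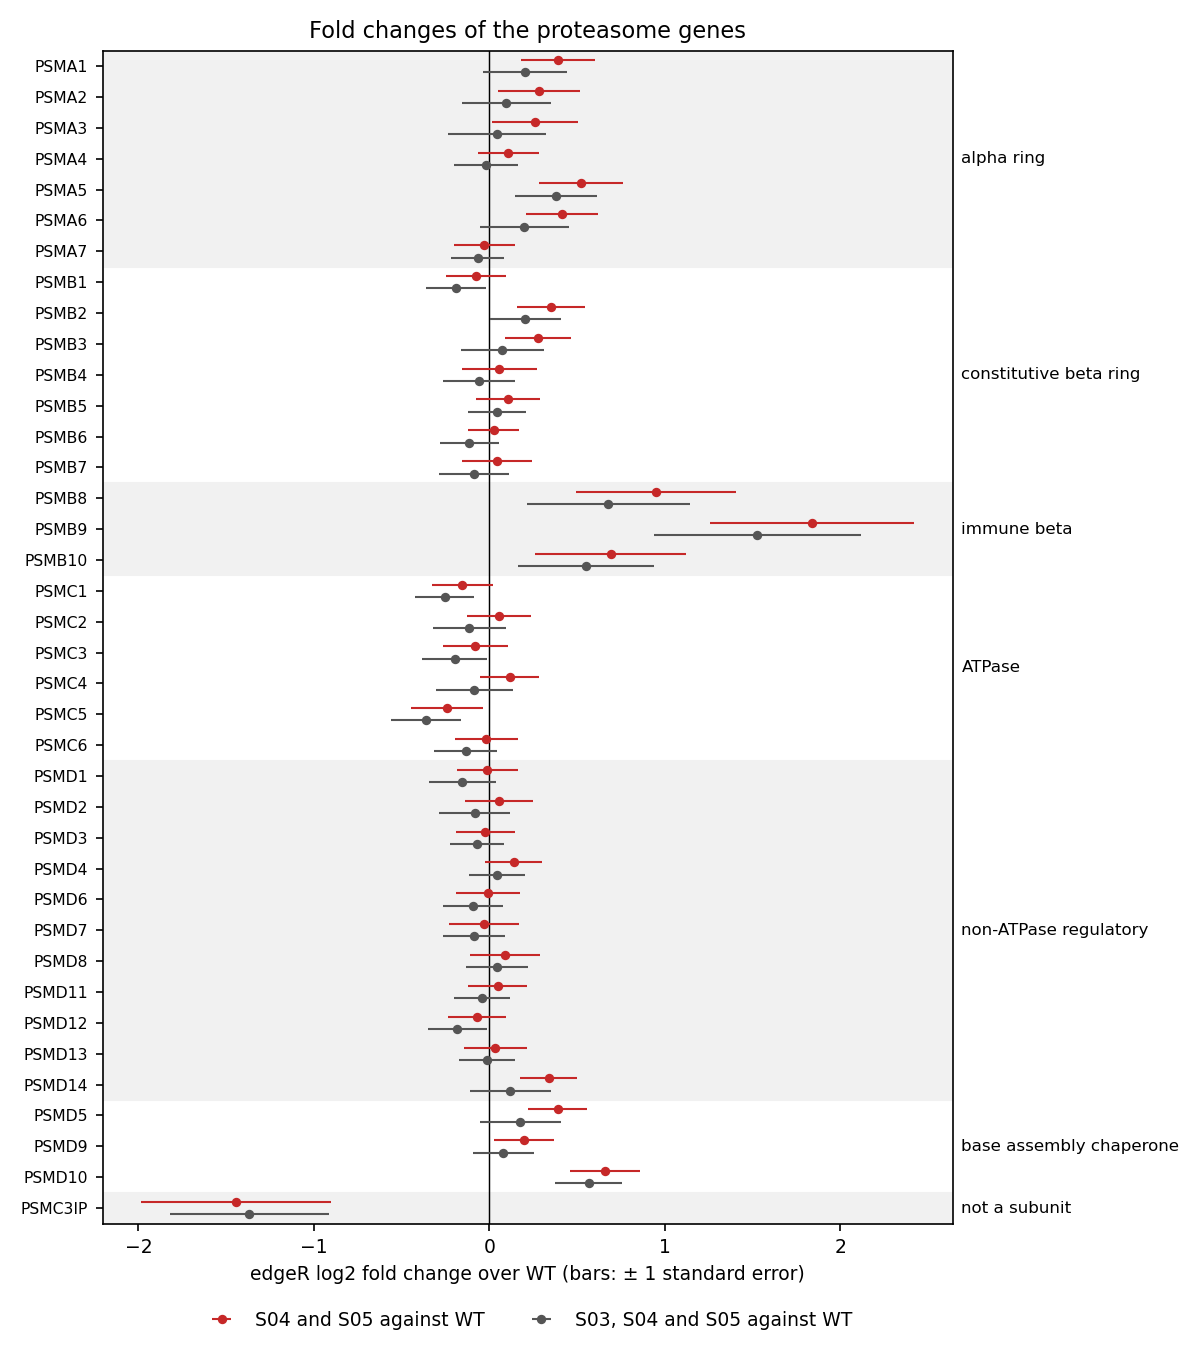
Points are edgeR log2 fold changes over WT and bars ± 1 standard error, for both sets of ASGR1+/- libraries, S04 and S05 alone and S03 to S05. PSMB9 had the highest value (1.84 without S03) and PSMC3IP the lowest (-1.44), and no gene passed the adjusted threshold.

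The immune subunits had the largest fold changes among the subunits and also the largest spread between animals. PSMB9, which takes the place of PSMB6 and lies on chromosome 7 (Sscrofa11.1, 25072133 to 25077508), had 45.5 (WT1), 24.1 (WT2) and 17.0 CPM (WT3) in the controls, 162 in S04, 44.2 in S05 and, apart, 43.2 in S03. S04 was far above every other library, while S05 and S03 were close to WT1, so the groups overlapped. The log2 fold change was 1.84 (SE 0.583, edgeR adjusted p = 0.150), and 1.53 with S03 (edgeR adjusted p = 0.265). DESeq2 gave an adjusted p of 0.0190 without S03 and 0.0745 with it. Without S04 the value of PSMB9 dropped to 0.61 with edgeR (adjusted p = 0.562 from edgeR), and the DESeq2 call was lost without S04, WT2 or WT3 in turn.

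PSMB8, which takes the place of PSMB5 and lies close to PSMB9 on chromosome 7 (Sscrofa11.1, 25058456 to 25061666), had 104 (WT1), 69.9 (WT2) and 45.7 CPM (WT3) in the controls, 204 in S04, 78.6 in S05 and, apart, 68.6 in S03. Here S04 was again the highest, and WT1 exceeded S05 and S03. The log2 fold change was 0.95 (SE 0.458, edgeR adjusted p = 0.294), 0.68 with S03 (edgeR adjusted p = 0.526) and 0.10 without S04. PSMB10, the counterpart of PSMB7, lies apart from the other immune subunits on chromosome 6 (Sscrofa11.1, 28544910 to 28547609), and had 61.8 (WT1), 40.3 (WT2) and 28.8 CPM (WT3) in the controls, 99.4 in S04, 41.5 in S05 and, apart, 51.0 in S03. WT1 exceeded both S05 and S03. The log2 fold change was 0.69 (SE 0.428, edgeR adjusted p = 0.410, and 0.55 with S03), and it turned to -0.075 without S04. Among the WT livers alone, the highest CPM was 2.15 to 2.68 times the lowest for the immune subunits, with WT1 highest and WT3 lowest for each, against 1.08 to 1.38 times for the constitutive core.

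The balance of each immune subunit with its constitutive counterpart was taken as the ratio of their TPM within a library. PSMB8 over PSMB5 was 2.04 (WT1), 1.10 (WT2) and 0.702 (WT3) in the controls, 2.93 in S04, 1.33 in S05 and, apart, 1.22 in S03. S04 and S05 exceeded WT by 0.76 on the log2 scale (mean 0.98 ± 0.81 against 0.22 ± 0.77, SD between animals). The immune transcript exceeded the constitutive one in every library but WT3. PSMB9 over PSMB6 was 0.668 (WT1), 0.374 (WT2) and 0.243 (WT3) in the controls, 2.35 in S04, 0.646 in S05 and, apart, 0.870 in S03, a difference of 1.65 on the log2 scale (mean 0.30 ± 1.32 against -1.35 ± 0.73, SD between animals). Only in S04 did PSMB9 exceed PSMB6. PSMB10 over PSMB7 was 0.671 (WT1), 0.402 (WT2) and 0.234 (WT3) in the controls, 0.830 in S04, 0.428 in S05 and, apart, 0.635 in S03, and the difference was 0.58 on the log2 scale (mean -0.75 ± 0.68 against -1.33 ± 0.76, SD between animals). PSMB10 stayed below PSMB7 in every library. The groups overlapped for each of the 3 pairs, with an exact two-sided permutation p of 0.400 for each without S03 (n = 2 and 3, where the smallest p the test allows is 0.200) and an adjusted p of 0.400 over the pairs. With S03 included the differences were 0.53, 1.48 and 0.61, with the same adjusted p of 0.400 from the exact permutation test.

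**Figure D4:**
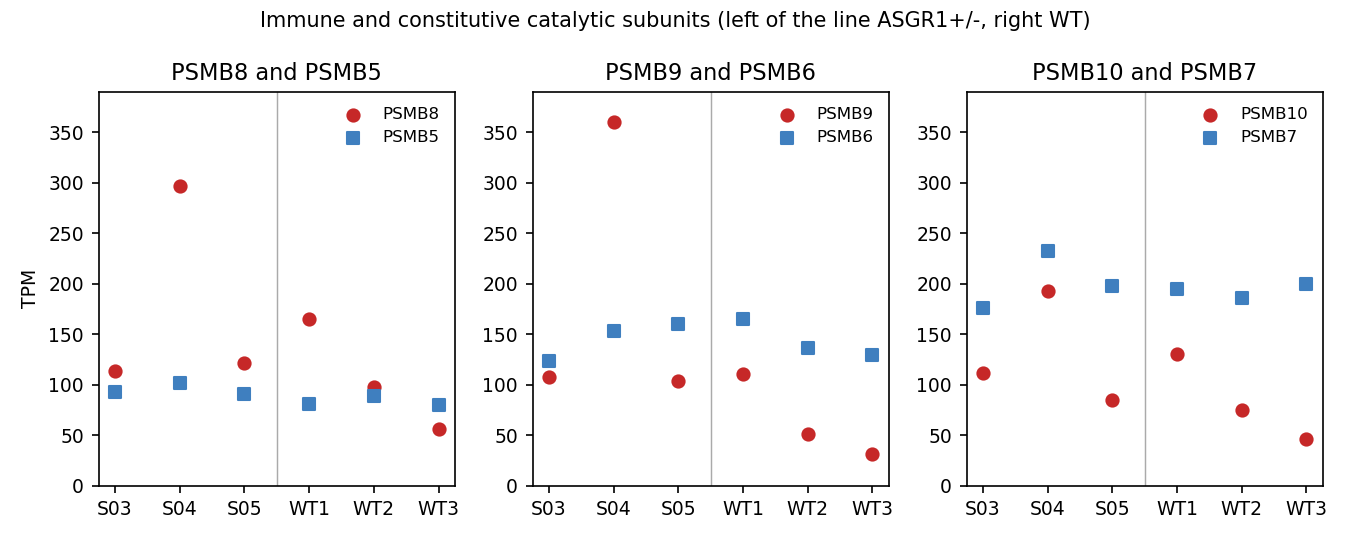
TPM of each immune subunit (red circles) and of the constitutive subunit it replaces (blue squares) in each library, with ASGR1+/- livers left of the line and WT right of it. PSMB9 reached 360.4 TPM in S04 and 31.4 to 110.2 in WT, while PSMB6 stayed between 124 and 165.

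The regulatory ATPases, which unfold the substrate, had a median log2 fold change of -0.049 without S03 and -0.17 with S03 included. PSMC5, an ATPase with the highest WT level of the regulatory particle (171 ± 8.70 TPM, SD, n = 3), had 124 (WT1), 143 (WT2) and 177 CPM (WT3) in the controls, 127 in S04, 123 in S05 and, apart, 94.9 in S03. S04 lay at the low end of the WT range, S05 just below WT1 and S03 far below it, with a log2 fold change of -0.24 (SE 0.204, edgeR adjusted p = 0.546), and -0.36 with S03 (edgeR adjusted p = 0.424). PSMC1 had 90.4 (WT1), 93.3 (WT2) and 111 CPM (WT3) in the controls, 91.6 in S04, 84.8 in S05 and, apart, 70.5 in S03, and -0.15 (SE 0.173, edgeR adjusted p = 0.649, and -0.25 with S03). PSMC4 had 62.3 (WT1), 75.5 (WT2) and 77.0 CPM (WT3) in the controls, 78.1 in S04, 76.9 in S05 and, apart, 47.4 in S03, and 0.12 (SE 0.169, edgeR adjusted p = 0.735, and -0.085 with S03). PSMC6, the ATPase with the smallest change, had 90.0 (WT1), 93.1 (WT2) and 106 CPM (WT3) in the controls, 105 in S04, 85.2 in S05 and, apart, 72.8 in S03, and -0.019 (SE 0.179, edgeR adjusted p = 0.963, and -0.14 with S03). In CPM the groups overlapped for every ATPase, and S03 was the lowest library for each of them. In TPM, S04 and S05 were above every WT library for PSMC2 and PSMC4 (all genes, 23.1%). They were below every WT library for PSMC5 (all genes, 14.4%), as was S03 in TPM. PSMC2 and PSMC3 had values of 0.053 and -0.080. The deposited counts of 4 members (PSMC1, PSMC5, PSMD6 and PSMC3IP) held fractions of reads, so part of their counts rests on how the counting tool divided shared reads.

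The other regulatory subunits had a median log2 fold change of 0.032 without S03 and -0.072 with it. PSMD14, the deubiquitinase that removes ubiquitin chains from the substrate, had 49.1 (WT1), 54.0 (WT2) and 58.8 CPM (WT3) in the controls, 72.8 in S04, 63.4 in S05 and, apart, 39.6 in S03. S04 and S05 were above every WT library and S03 was below every one, so the separation of the groups rests on leaving S03 out. The log2 fold change was 0.34 (SE 0.164, edgeR adjusted p = 0.299), and 0.12 with S03 (edgeR adjusted p = 0.842). PSMD4, a ubiquitin receptor, had 67.6 (WT1), 80.5 (WT2) and 76.0 CPM (WT3) in the controls, 84.5 in S04, 80.0 in S05 and, apart, 66.4 in S03, and 0.14 (SE 0.162, edgeR adjusted p = 0.662, and 0.043 with S03). PSMD8, a lid subunit, had 75.4 (WT1), 107 (WT2) and 101 CPM (WT3) in the controls, 102 in S04, 98.2 in S05 and, apart, 91.7 in S03, and 0.086 (SE 0.200, edgeR adjusted p = 0.837, and 0.044 with S03). PSMD6, also of the lid and the subunit with the smallest change, had 42.5 (WT1), 54.0 (WT2) and 57.4 CPM (WT3) in the controls, 48.6 in S04, 53.3 in S05 and, apart, 42.4 in S03, and -0.0096 (SE 0.183, edgeR adjusted p = 0.984, and -0.092 with S03). S05 and S04 were inside the WT range for PSMD6 and PSMD8. The remaining members of this class (PSMD1, PSMD2, PSMD3, PSMD7, PSMD11, PSMD12 and PSMD13) had log2 fold changes from -0.072 (PSMD12) to 0.052 (PSMD2), all with overlapping groups in CPM. In TPM, S04 and S05 were above every WT library for 5 of 11 (PSMD1, PSMD2, PSMD4, PSMD13 and PSMD14, all genes 23.1%). Levels in WT liver ran from 19.9 ± 1.27 TPM (SD, n = 3) for PSMD6 to 99.8 ± 9.12 TPM (SD, n = 3) for PSMD4. PSMD12 (21.3 ± 0.525) and PSMD6 did not differ in level beyond their SDs.

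Of the base assembly chaperones, PSMD10 stood apart, and it is described here because of its value. PSMD10, also known as gankyrin, binds the ATPase PSMC4 during assembly and is studied as an oncoprotein of the liver, and the gene lies on chromosome X (Sscrofa11.1, 88540261 to 88548593). It had 13.5 (WT1), 16.7 (WT2) and 16.0 CPM (WT3) in the controls, 27.4 in S04, 21.0 in S05 and, apart, 19.8 in S03. All ASGR1+/- libraries were above all WT libraries. The log2 fold change was 0.66 (SE 0.199, edgeR adjusted p = 0.139), and 0.56 with S03 (edgeR adjusted p = 0.212). The unadjusted p was 0.0135 without S03 and 0.0181 with it from edgeR, and the DESeq2 adjusted p was 0.0844 without S03 and 0.160 with it. PSMD5, a chaperone of the ATPase ring that was also chosen once its values had been seen, had 38.4 (WT1), 48.7 (WT2) and 43.1 CPM (WT3) in the controls, 58.8 in S04, 54.8 in S05 and, apart, 33.6 in S03. S03 lay below WT where S04 and S05 lay above it. The log2 fold change was 0.39 (SE 0.166, edgeR adjusted p = 0.244), and 0.18 with S03 (edgeR adjusted p = 0.753). PSMD9 had a value of 0.20, with overlapping groups. PSMC3IP was expressed at a low level, with 1.67 (WT1), 1.66 (WT2) and 3.52 CPM (WT3) in the controls, 1.04 in S04, 0.620 in S05 and, apart, 0.963 in S03. Its level was lower in every ASGR1+/- library than in every WT library, and its log2 fold change was -1.44 (SE 0.542, edgeR adjusted p = 0.199), and -1.37 with S03 (edgeR adjusted p = 0.208). The counts behind it were 10.4 (S05) to 48.9 (WT3), so counting error adds to the spread between animals.

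The split of the proteasome genes into higher and lower depended on how libraries were scaled. With library totals alone in place of TMM, the median of all genes moved to 0.11 without S03 and 0.18 with it, and 35 proteasome genes were above 0 and 3 below without S03, with a median of 0.19. With S03 included, 32 were above 0 and 6 below. TPM, which holds each library to a fixed sum, gave no overlap between S04 and S05 and WT for 17 higher and 2 lower proteasome genes, beside 23.1% and 14.4% of all genes. With S03 included the counts were 5 and 2, beside 17.4% and 6.49%. Of the higher genes without S03 in TPM, 8 were core and 7 regulatory subunits, and none was an immune subunit. The summed level of hepatocyte markers, given above, differed between the groups, and its part in the scaling was not tested.

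The other genes of the pathway, in lists of activators, assembly chaperones, ubiquitin handling and control genes, held no gene that passed edgeR or DESeq2 in either comparison. Among the 5 activators and inhibitors of the core, the median log2 fold change was 0.47, and PSME2 was higher at an unadjusted p of 0.0277 from edgeR. With S03 included the median was 0.34 and the unadjusted edgeR p of PSME2 was 0.159, with overlapping groups. PSME2, which with PSME1 forms the interferon-induced cap that opens the gate, had 106 (WT1), 84.5 (WT2) and 87.2 CPM (WT3) in the controls, 195 in S04, 111 in S05 and, apart, 81.8 in S03. S04 was again far above the rest, S05 was just above WT1 and S03 below every WT library, for a change of 0.73 (SE 0.262, edgeR adjusted p = 0.184, and 0.49 with S03). PSME1 had 138 (WT1), 122 (WT2) and 151 CPM (WT3) in the controls, 251 in S04, 147 in S05 and, apart, 146 in S03, and 0.54 (SE 0.256, edgeR adjusted p = 0.284, and 0.41 with S03), with S05 inside the WT range of CPM. The nuclear activator PSME3 had 0.47, PSME4 had -0.23 and the inhibitor PSMF1 had 0.051. In TPM each ASGR1+/- library was above each WT library for 2 of these 5 genes, PSME1 and PSME3 (all genes, 17.4%). For 1, PSME4, each was below (all genes, 6.49%). The 5 assembly chaperones tested had a median of 0.11, with values from 0.0095 (PAAF1) to 0.37 (PSMG2), and POMP was not analysed here. For the 3 ubiquitin receptors and deubiquitinases bound to the regulatory particle the values were 0.13 (ADRM1), 0.22 (UCHL5) and 0.042 (USP14), and SEM1 was not analysed here.

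Ubiquitin itself was among the most abundant transcripts of the pathway and no gene of its list passed the test. Over 5 genes of ubiquitin and its activating enzymes the median was 0.029, with values from -0.010 (UBB, a polyubiquitin gene) to 0.27 (UBA6, an activating enzyme). UBB had 1227 (WT1), 1494 (WT2) and 1318 CPM (WT3) in the controls, 1542 in S04, 1131 in S05 and, apart, 1235 in S03, with S04 just above the WT range, S05 below it and S03 inside it. Of 7 shuttle and unfoldase genes, UBQLN4, a ubiquilin that binds ubiquitinated proteins, had the smallest p, with 20.7 (WT1), 19.0 (WT2) and 19.2 CPM (WT3) in the controls, 22.3 in S04, 28.6 in S05 and, apart, 33.4 in S03. In CPM each ASGR1+/- library was above each WT library for 2 genes of the list, UFD1 and UBQLN4 (all genes, 9.94%). In TPM this still held for UFD1, while the groups overlapped for UBQLN4. The value was 0.37 (SE 0.179, edgeR adjusted p = 0.291, and 0.52 with S03), with an unadjusted edgeR p of 0.0760 without S03 and 0.0234 with it, for the list a median of 0.091 and for the unfoldase VCP -0.0057, and DDI2 was not analysed here. NFE2L1, the transcription factor that raises the genes of the subunits when proteasomes are impaired, had 225 (WT1), 245 (WT2) and 162 CPM (WT3) in the controls, 268 in S04, 254 in S05 and, apart, 223 in S03, and 0.31 (SE 0.223, edgeR adjusted p = 0.483, and 0.24 with S03). WT3 was below the other libraries for it. The 5 genes of this control list had a median of 0.31, with MAFK at 0.39, MAFG at 0.39, NFE2L2 at -0.20 and NGLY1 at -0.19. MAFK, a small MAF protein that partners these factors and had the smallest p of the list, had 14.2 (WT1), 12.2 (WT2) and 11.2 CPM (WT3) in the controls, 15.2 in S04, 17.7 in S05 and, apart, 14.2 in S03, level with WT1. In CPM, S04 and S05 were above every WT library for 2 of 5 genes of the list, NFE2L1 and MAFK (all genes, 19%). In TPM the groups overlapped for MAFK.

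The genes that control or accompany the immune subunits shared the high value of S04. S04 was the highest library for 8 of 8 of them (IRF1, NLRC5, CIITA, TAP1, TAP2, TAPBP, B2M and ERAP1), beside 14.8% of all genes, and none had groups without overlap. TAP1, a subunit of the transporter that brings peptides from the proteasome to MHC class I, had 92.3 (WT1), 61.6 (WT2) and 34.2 CPM (WT3) in the controls, 204 in S04, 67.5 in S05 and, apart, 94.9 in S03, and 1.12 (SE 0.529, edgeR adjusted p = 0.287, and 0.96 with S03). TAP2, the other subunit, had 89.1 (WT1), 66.5 (WT2) and 43.1 CPM (WT3) in the controls, 190.2 in S04, 68.1 in S05 and, apart, 86.1 in S03, and 0.96 (SE 0.456, edgeR adjusted p = 0.286, and 0.79 with S03). Both lie beside PSMB8 and PSMB9, TAP2 on chromosome 7 (Sscrofa11.1, 25045085 to 25056915) and TAP1 at 25062772 to 25071989, and their WT livers followed the order of the immune subunits, with WT1 highest and WT3 lowest. IRF1, a factor that binds the promoters of immune subunits, had 145 (WT1), 101 (WT2) and 75.7 CPM (WT3) in the controls, 197 in S04, 81.0 in S05 and, apart, 94.1 in S03, a change of 0.37 (SE 0.413, edgeR adjusted p = 0.645, and 0.21 with S03). The median of the list was 0.38 without S03 and 0.26 with it.

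**Figure D5:**
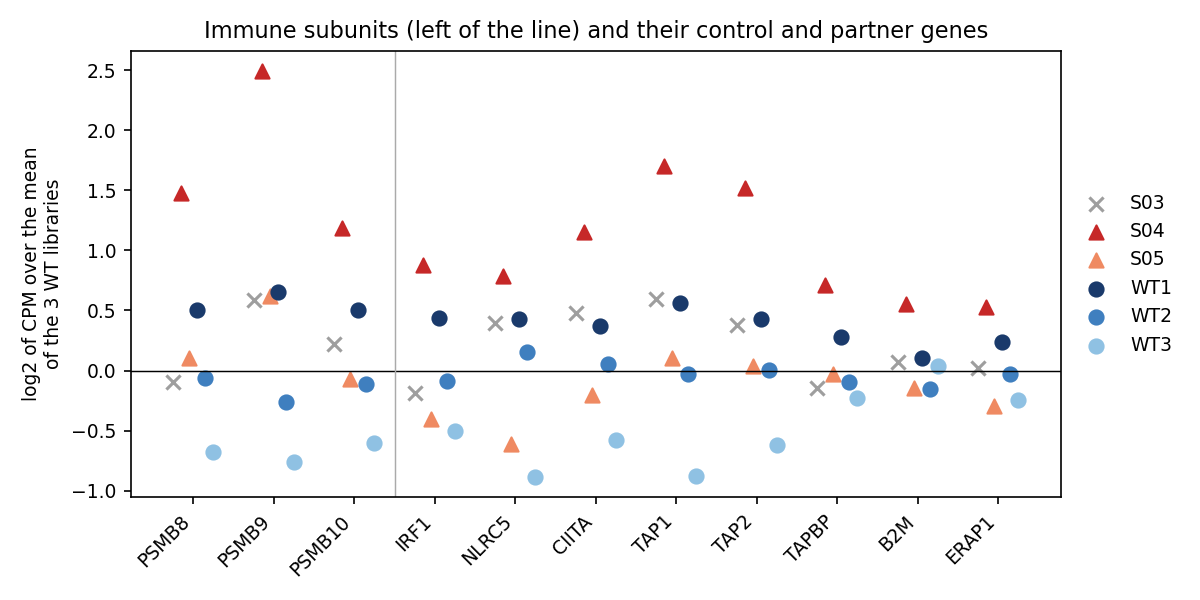
Points give, for each gene and library, the log2 of CPM over the mean of the 3 WT libraries, for the immune subunits and for their control and partner genes. S04 is the highest point of every column, and TAP1 reached 204 CPM in S04 against 34.2 to 92.3 in WT.

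Immune subunits are abundant in leukocytes, and markers of these cells are given beside them. The 16 markers of lymphocytes and NK cells summed to 76.8 CPM in S04, 53.3 in S05 and, apart, 136 in S03, where WT had 85.8 to 198, so S04 was below the WT range here, while in TPM (148 against 111 to 431) it was inside it. KLRD1, a receptor of NK cells, was the 1 of them that passed edgeR, in both comparisons (all genes, 0.791% and 0.136%). It fell, with 0.491 CPM in S04, 0.248 in S05 and a WT range of 7.19 to 8.34 (log2 fold change -4.37, edgeR adjusted p = 0.0149). DESeq2 passed 3 of these markers as lower without S03 (KLRD1, CD8A and CD8B, all genes 6.3%). With S03 included it passed 1, KLRD1 (all genes, 3.91%). The 11 macrophage markers summed to 2024 CPM in S04, 2525 in S05 and, apart, 1817 in S03, where WT had 2487 to 3522, with S04 again below WT. None of them passed edgeR, and DESeq2 passed 2 as lower in both comparisons (MARCO and CD5L, all genes 6.3% and 3.91%). The 7 markers of antigen presenting cells, among them CD74 and the MHC class II genes, summed to 1737 CPM in S04, 1266 in S05 and, apart, 1336 in S03, where WT had 1109.5 to 1824, with S04 inside the WT range and lower than WT1. S04 was the highest library for 3 of these 7, CIITA (62.6 CPM against at most 36.4 in WT), SLA-DRA (422 against 393) and SLA-DQB1 (269 against 250.4), beside 14.8% of all genes. In TPM it was the highest for 1 of the 7, CIITA (all genes, 10.6%). WT1 then exceeded S04 for SLA-DRA (601 against 591 TPM) and SLA-DQB1 (406 against 401 TPM). The 6 neutrophil markers summed to 17.1 CPM in S04, 16.7 in S05 and, apart, 14.1 in S03, where WT had 5.61 to 8.58. The sum was higher in all ASGR1+/- livers and similar in S04 and S05, but CSF3R made up most of it there (11.9 CPM in S04, 10.1 in S05). CXCR2 went the other way (log2 fold change -0.52), and MPO was highest in WT2. No neutrophil marker passed edgeR, and DESeq2 passed 2 as higher in both comparisons (S100A8 and CSF3R, all genes 3.26% and 1.73%). S100A8, S100A9 and S100A12 had only 2 to 13 counts in each WT library. The part of these markers in the level of the immune subunits was not tested. No defining marker was at 0 in any library of these lists.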

How the data were processed

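The authors sequenced the liver RNA on a BGISEQ platform, trimmed reads with SOAPnuke and aligned them with HISAT and Bowtie2 (HISAT2 2.0.4 and build Sscrofa11.1 per the submitters' processing notes). The deposited table gives estimated counts per gene, not normalized by the authors, whose counting tool is not given in the sources used here. It also gives TPM, brought by the authors to an equal total in every library, and FPKM, which the authors computed per transcript length and library size and which were not used here. The deposited group averages were not used.

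Of the count values, 12% were fractional, and all were rounded for the tests. Groups followed the genotype labels. Differences were tested by quasi-likelihood in edgeR 4.0.16 (R 4.3.3) after TMM scaling, with filterByExpr at a minimum count of 10 and Benjamini-Hochberg adjustment over all genes tested. DESeq2 1.42.0, limma 3.58.1 on log2(TPM + 1) with a mean TPM of at least 1, and other scalings and filters were alternatives. Scripts were checked on simulated data. The parts of the spread between animals and of counting error in the precision of each gene were not separated. Ratios within a library were compared by exact permutation tests.

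Members and gene lists were chosen with earlier results of these data known. Genes described by name were the immune and constitutive catalytic subunits, and in each class the 3 members with the largest and the 1 with the smallest change. PSMD5, PSMD10 and PSMC3IP were added after their values were seen, and other pathway lists were described by counts, by the member with the smallest p and by genes picked for their role (PSME1, UBB, NFE2L1, TAP1 and IRF1). A few genes of these lists are not reported here.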

Additional observations from a re-analysis of the deposited data

How the results depend on the processing

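No paired analysis was made, since the libraries came from separate animals and neither the paper nor the labels describe pairs. The count of proteasome genes passing edgeR stayed at 0 in each comparison under RLE scaling, library totals alone, no filter on low counts, limma on TPM and every left-out library. DESeq2 passed 1 gene (PSMB9) without S03 and 0 with it. Leaving out 1 library at a time with DESeq2, an alternative added after the data were seen, gave 0 to 2 genes (0 without S04, WT2 or WT3, 1 without WT1, and PSMB9 and PSMB8 without S05), beside 6.82% of all genes without S04, 3.64% without S05, 6.25% without WT1, 4.68% without WT2 and 7.85% without WT3, and the value of PSMB9 ran from 0.61 to 2.5. With 1 library left out, the log2 difference of PSMB9 over PSMB6 ran from 0.72 to 2.58, lowest without S04 and highest without S05. Log2 fold changes near 0 turned positive under library totals alone and under limma on log2(TPM + 1), with or without its filter, or log2(TPM + 0.1), and without S03 the values in that order, equal ones given once, were PSMA7 (0.079, 0.069, 0.070), PSMC6 (0.090, 0.076, 0.077) and PSMD6 (0.11, 0.093, 0.10). Leaving out 1 library in turn changed the sign without S03 for PSMB5 (-0.013 to 0.23), PSMB7 (-0.11 to 0.20), PSMB10 (-0.075 to 1.20), PSMD6 (-0.12 to 0.078), PSMA7 (-0.17 to 0.12), PSMC6 (-0.17 to 0.14), PSMD8 (-0.041 to 0.18) and PSMB6 (-0.0093 to 0.048). Log2 fold changes near 0 turned positive under library totals alone and under limma on log2(TPM + 1), with or without its filter, or log2(TPM + 0.1), and with S03 the values in that order, equal ones given once, were PSMA7 (0.10, 0.079), PSMB6 (0.036, 0.021, 0.022), PSMB7 (0.078, 0.054), PSMC4 (0.071, 0.035, 0.036), PSMC6 (0.023, 0.0021) and PSMD6 (0.079, 0.061, 0.064). Leaving out 1 library in turn changed the sign with S03 for PSMB6 (-0.19 to 0.023), PSMB7 (-0.25 to 0.046), PSMC4 (-0.20 to 0.12), PSMA1 (-0.069 to 0.39), PSMA6 (-0.089 to 0.41), PSMB2 (-0.0083 to 0.35), PSMB3 (-0.10 to 0.28), PSMB5 (-0.065 to 0.11), PSMD4 (-0.030 to 0.14), PSMD14 (-0.068 to 0.34), PSMD8 (-0.10 to 0.14) and PSMD6 (-0.21 to 0.0029). None of these genes was called in any of those fits, and the cause of the changes was not tested. Immune subunit results rest on S04, and a sole library in an arm was assumed to vary like the others.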
